A study of Mus musculus with 22 samples.

Results

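The collagen, laminin and lysyl oxidase genes of the mouse were followed through cell types and days of gastruloid culture. They were chosen by a rule on the symbol: every gene whose symbol is that of a collagen chain (Col, number, a, number), of a laminin chain (Lama, Lamb or Lamc with a number), or of Lox and Loxl1 to Loxl4. This gave 60 of the 32285 genes measured, namely 44 collagen chains, 11 laminin chains and 5 lysyl oxidases. Gastruloids are balls of cultured embryonic stem cells in which early embryonic cell types arise, and all of them here came from E14Tg2A, a mouse embryonic stem cell line, with no genetic change named. Wells were seeded with 300 cells in N2B27 medium, the cells aggregated for 48 h, and each well then received 3 µM CHIR99021, a GSK3 inhibitor that activates Wnt signalling, so that the groups share this treatment and differ by day and experiment. In MULTI-seq, the cells of each gastruloid received a lipid-anchored DNA barcode before they were pooled and split over 10x lanes, which allows each cell to be traced to its gastruloid. For MULTI-seq 3, 24 gastruloids came from day 3 and 16 from each later time (days 3.5, 4, 4.5 and 5). From MULTI-seq 2, 11 gastruloids of day 4 and 12 of day 4.5 entered, and from MULTI-seq 1, 24 of day 5. The labels name 22 lanes, of which 4 lanes of MULTI-seq 2 with days 3 and 3.5 were not analysed here. The gastruloid was the replicate throughout, and p-values therefore measure the spread among aggregates of 1 cell line.

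Collagens are secreted as trimers of chains. Collagen IV forms the network of basement membranes, the thin sheets on which epithelia rest, whereas fibrillar collagens such as types I, II, III, V and XI form the fibrils of connective tissue, cartilage and the notochord sheath. Laminins are trimers of an alpha, a beta and a gamma chain, polymerise on the cell surface, and start basement membrane assembly in the early embryo, where the chains encoded by Lama1 or Lama5 join those of Lamb1 and Lamc1. Lysyl oxidases are enzymes that oxidise lysines of collagens and elastin, the step before these proteins are crosslinked.

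Levels are given as CPM, the UMIs (unique molecular identifiers, 1 per captured RNA molecule) of a gene per 1000000 UMIs of the same gastruloid or of the same cell type in that gastruloid. They come from 3′ counts and are not scaled by length, so they are compared between samples for a gene and not between genes. In all, 77674 cells in 18 lanes entered, of which 53730 carried the barcode of 1 gastruloid, and a gastruloid summed to between 1293296 and 57333371 UMIs. The median number of cells per gastruloid ran from 143 (day 4 of MULTI-seq 2) to 854 (day 4 of MULTI-seq 3). Median UMIs per cell ran from 8287 to 38443 over lanes, and no pair of lanes shared more than 15 cell barcodes. The authors' 25 cluster names serve as cell types, and clusters were formed on the expression of these same cells, so comparisons of 1 type with another are descriptions without a test. Marker genes of 11 classes of names had their highest mean under a name of their class in 31 of 43 cases, such as Tubb3 in Neurons, Kdr and Cdh5 in Endothelium and Noto in Notochord. None of the 4 markers of Primitive Streak was highest there (T was highest in Notochord, Mixl1 and Eomes in Early Nascent Mesoderm, and Fgf8 in Anterior Primitive Streak), nor was any of the 3 of Epiblast (Pou5f1, Dnmt3b and Utf1), so that Primitive Streak and Epiblast are used here only as the authors' names. The others were Foxa2 of endoderm, Gata6 and Isl1 of Cardiopharyngeal Mesoderm, Foxc2 of somites and Prdm1 of PGCs. Of the markers of extraembryonic endoderm, a source of basement membrane in the embryo, Ttr, Afp, Apoa1 and Thbd were at or below 2.94 CPM in every cluster mean, while Plat reached 35.7 CPM in Mature Endoderm. The part of RNA free in the droplets in low levels was not tested.

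**Figure D1:**
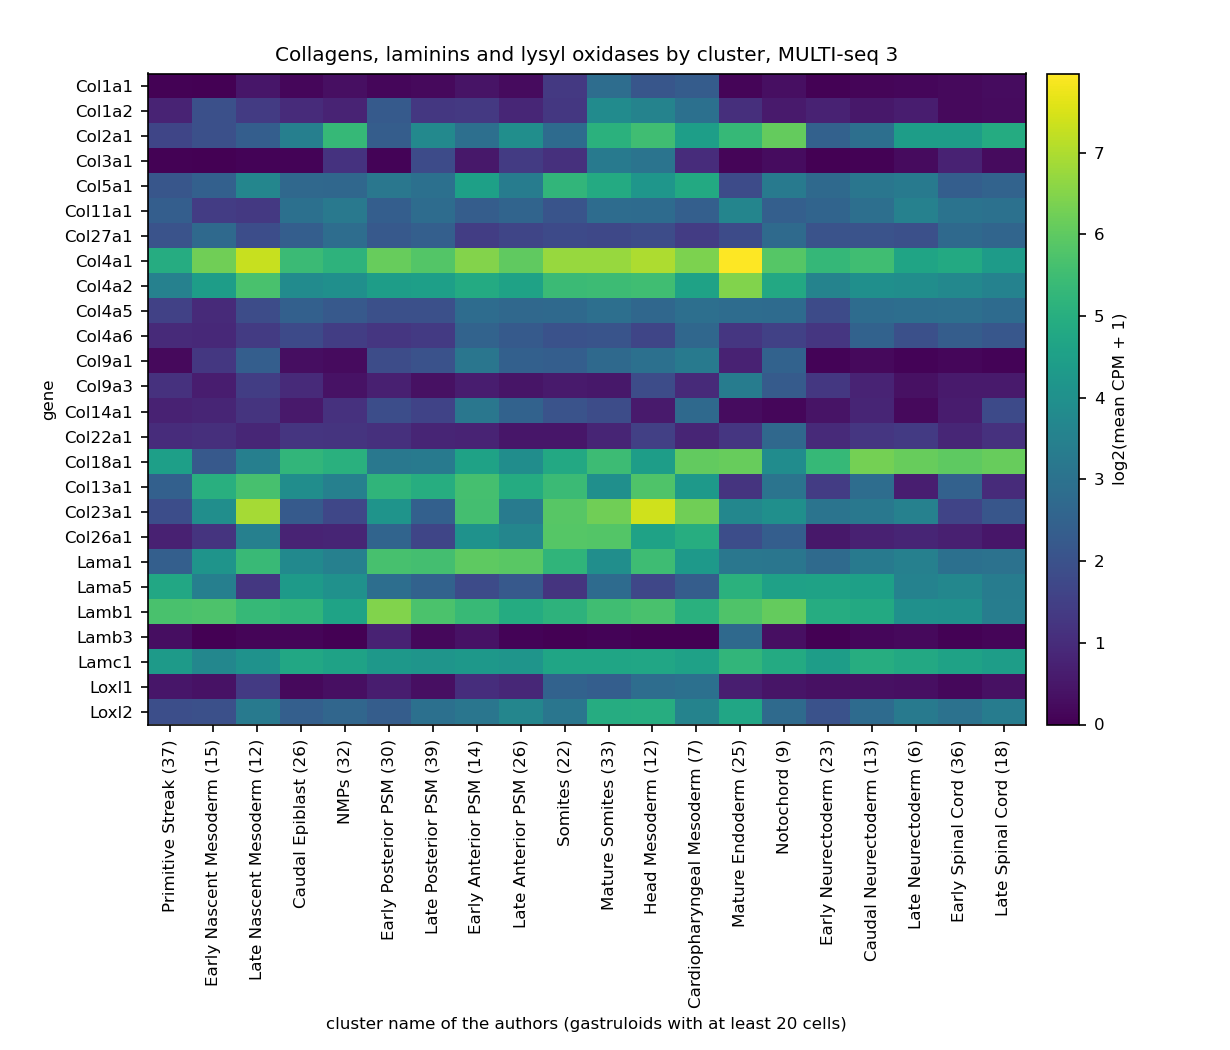
Mean level of the 26 members that reached at least 5 CPM in some cell type of MULTI-seq 3, as log2(mean CPM + 1) by colour, with genes in rows and the authors' cluster names in columns (in brackets the gastruloids with at least 20 cells of the type). Col4a1 is brightest in Mature Endoderm, Col18a1 is bright in the neural columns, and Col23a1, Col13a1 and Col26a1 are bright in several mesoderm columns and dark in Late Spinal Cord.

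Cell type means take in gastruloids of all days, and the types differ in the days they come from. Across the 20 cell types that held at least 20 cells in 3 or more gastruloids of MULTI-seq 3, 26 of the 60 members reached a mean of 5 CPM in some type and 34 did not. Each of the 60 had at least 1 UMI in cells of gastruloids. The members that reached it were spread over the family: collagen IV chains (Col4a1, Col4a2, Col4a5 and Col4a6), fibrillar chains (Col1a1, Col1a2, Col2a1, Col3a1, Col5a1, Col11a1 and Col27a1), laminin chains (Lama1, Lama5, Lamb1, Lamb3 and Lamc1) and lysyl oxidases (Loxl1 and Loxl2), together with Col18a1, Col13a1, Col23a1, Col26a1, Col9a1, Col9a3, Col14a1 and Col22a1. The collagen VI chains stayed low, with cluster means of at most 1.99 CPM for Col6a1. Lox, the founding member of the lysyl oxidases, had a highest cluster mean of 0.196 CPM, in Notochord. With at least 40 cells of a type required, 23 of the 26 had the same type on top. The exceptions were Col3a1, Col4a5 and Col26a1. Within single days fewer types can be compared: at day 4 (14 types) 16 of the 25 members whose highest type was present had it on top, and at day 5 (9 types) 12 of 16. The highest type on a single day was thus not always that of the pooled days. The days pooled, the number of types and the gastruloids per type differ at once here, and their parts were not tested. Among the 8 types present in both MULTI-seq 3 and MULTI-seq 1, 17 of the 26 had the same highest type in both experiments, and among the 9 types shared with MULTI-seq 2, 16 of the 26 did.

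Of the collagen IV chains, Col4a1 and Col4a2 were highest in Mature Endoderm and lowest in Late Spinal Cord and Primitive Streak respectively. Col4a1 (chr8:11198423-11312826, minus strand) and Col4a2 (chr8:11312805-11449287, plus strand) encode the chains of the collagen IV trimer that is present in nearly all basement membranes. Their annotated gene bodies overlap by 22 bp, head to head, so that 1 stretch of DNA serves as promoter for both. The X-linked Col4a5 and Col4a6, which encode chains of other collagen IV trimers, also lie head to head, but their transcription starts are 1343 bp apart against 21 bp for the Col4a1 and Col4a2 pair. The RefSeq promoters of these 4 genes (250 bases before to 50 after the start, build GRCm38.p6, each 5′ to 3′ on its own strand) are shown to compare the shared promoter with the separated one. Capitals mark CCAAT or its complement ATTGG, and GGGCGG or its complement CCGCCC, the boxes bound by NF-Y and by Sp1-type factors.
Col4a1 (chr8:11312777-11313076, minus): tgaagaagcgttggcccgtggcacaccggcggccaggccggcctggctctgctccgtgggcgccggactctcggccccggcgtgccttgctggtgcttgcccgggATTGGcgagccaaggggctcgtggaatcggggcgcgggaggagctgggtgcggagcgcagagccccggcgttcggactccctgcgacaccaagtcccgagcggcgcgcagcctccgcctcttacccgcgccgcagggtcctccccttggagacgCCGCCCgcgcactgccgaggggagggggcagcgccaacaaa
Col4a2 (chr8:11312555-11312854, plus): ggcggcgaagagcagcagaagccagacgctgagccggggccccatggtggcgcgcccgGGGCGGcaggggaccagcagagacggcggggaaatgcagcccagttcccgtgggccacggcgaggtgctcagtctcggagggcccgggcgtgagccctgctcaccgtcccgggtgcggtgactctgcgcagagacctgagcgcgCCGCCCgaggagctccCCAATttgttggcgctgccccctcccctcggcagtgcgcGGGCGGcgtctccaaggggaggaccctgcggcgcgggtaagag
Col4a5 (chrX:141475169-141475468, plus): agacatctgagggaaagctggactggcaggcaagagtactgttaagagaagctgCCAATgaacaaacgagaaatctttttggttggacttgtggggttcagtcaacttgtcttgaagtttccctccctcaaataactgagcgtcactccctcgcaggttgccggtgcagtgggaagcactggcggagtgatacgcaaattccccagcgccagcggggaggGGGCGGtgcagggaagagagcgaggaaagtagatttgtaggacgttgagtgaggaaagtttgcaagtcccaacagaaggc
Col4a6 (chrX:141474027-141474326, minus): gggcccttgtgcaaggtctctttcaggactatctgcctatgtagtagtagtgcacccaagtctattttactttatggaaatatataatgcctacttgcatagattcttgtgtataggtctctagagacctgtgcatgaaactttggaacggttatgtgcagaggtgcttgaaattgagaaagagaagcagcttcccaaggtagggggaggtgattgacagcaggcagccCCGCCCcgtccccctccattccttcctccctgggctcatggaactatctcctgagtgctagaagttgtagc

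The Col4a1 and Col4a2 windows overlap by 78 bp, and both have a high GC content (74% and 73.7%), whereas the Col4a5 and Col4a6 windows do not overlap and have a GC content of 52.7% and 48.3%. The box GGGCGG occurs in each of the 4 windows on 1 strand or the other, 3 times in that of Col4a2, and CCAAT occurs once in those of Col4a1, Col4a2 and Col4a5. Over all 32851 RefSeq promoters of this length, 35.7% hold GGGCGG and 37.4% hold CCAAT. Of the 45 promoters of members (41 symbols matched), 27 hold GGGCGG and 14 hold CCAAT. The box TATAAA occurs in none of the 4 windows, in 5 of the 45 and in 13.6% of all. Motif matches are descriptions of these letters only.

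Col4a1 averaged 249.7 ± 46.6 CPM in Mature Endoderm (SD, n = 25 gastruloids), from 169.9 to 344.1 with a median of 246.6. The next type, Late Nascent Mesoderm, had 158.2 CPM, and Late Spinal Cord was lowest at 19.6 ± 5.16 CPM (SD, n = 18), with a highest gastruloid of 31.5. The lowest endoderm value lay above the highest spinal cord value. Col4a2 was also highest in endoderm, with 87.3 ± 16.1 CPM in Mature Endoderm (SD, n = 25) and 10.3 CPM in Primitive Streak, its lowest type. Over the 20 cluster means, Pearson's r between log2(CPM + 1) of Col4a1 and of Col4a2 was 0.95, and the ratio of their levels ran from 1.76 to 3.58. For Col4a5 and Col4a6 r was 0.80 and the ratio ran from 1.05 to 4.29. These are descriptions over clusters that share gastruloids and lanes. Col4a6 was highest in Cardiopharyngeal Mesoderm, at 5.27 CPM. Col4a5 had no clear highest type, with 6.56 ± 1.52 CPM in Cardiopharyngeal Mesoderm (SD, n = 7) and 6.53 CPM in Early Spinal Cord, which was on top with at least 40 cells. Both genes were lowest in Early Nascent Mesoderm. Col4a3 and Col4a4, the third head-to-head pair, did not exceed 0.0722 and 1.24 CPM.

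**Figure D2:**
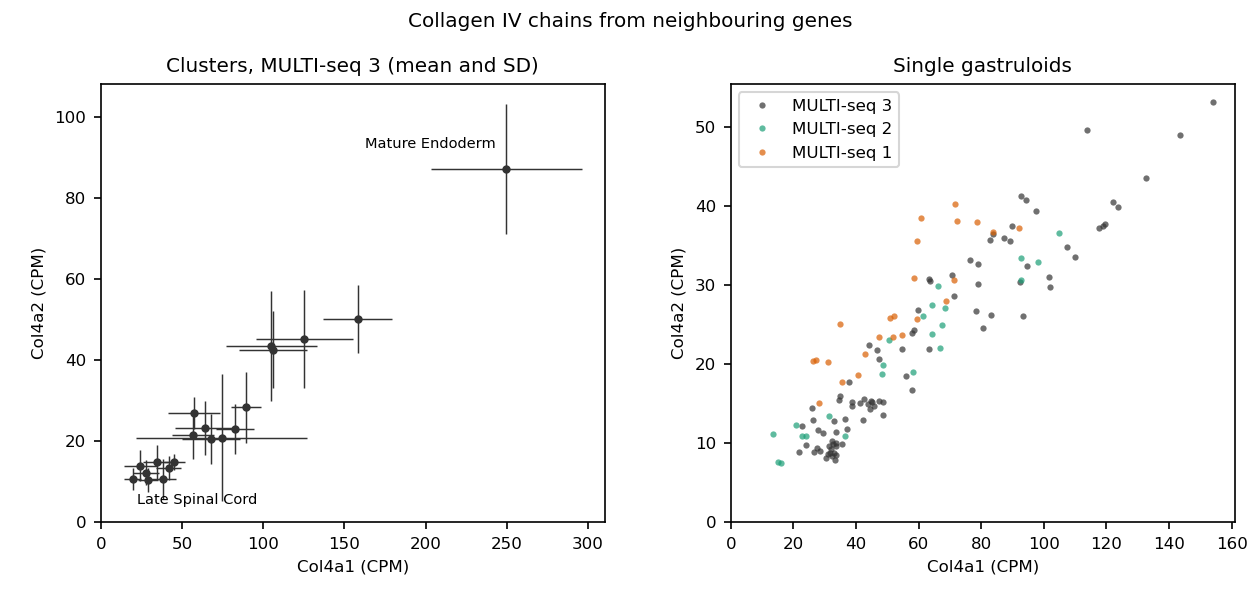
Col4a2 against Col4a1 in CPM, on the left as the mean and SD of each cell type of MULTI-seq 3 and on the right as single gastruloids of the 3 MULTI-seq experiments. Mature Endoderm lies at the upper right and Late Spinal Cord at the lower left, and most points of MULTI-seq 1 lie at the upper edge of the cloud of gastruloids.

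The laminin alpha chains Lama1 and Lama5 were highest in different cell types. Lama1 (chr17:67697259-67822647, plus strand), the alpha chain of the main laminin of the early embryo, was highest in Early Anterior PSM (presomitic mesoderm, the tissue that buds off somites) at 62.8 ± 13.5 CPM (SD, n = 14) and lowest in Primitive Streak at 4.30 CPM. Lama5 (chr2:180176373-180225859, minus strand), the alpha chain of many later epithelial basement membranes, was highest in Mature Endoderm at 33.4 ± 5.50 CPM (SD, n = 25), followed by Primitive Streak at 26.4 CPM, and lowest in Somites at 1.31 ± 1.09 CPM (SD, n = 22), where 6 gastruloids had no UMI. Over the 20 cluster means Pearson's r of log2(CPM + 1) between Lama1 and Lama5 was -0.85. The share of Lama1 among the UMIs of Lama1 and Lama5 together was 96.5% ± 3.00 in Somites (SD, n = 22), 69.6% ± 12.6 in Mature Somites (n = 33), 36.5% ± 10.4 in Early Spinal Cord (n = 36), 18.9% ± 7.86 in Mature Endoderm (n = 25) and 13.04% ± 7.85 in Primitive Streak (n = 37). In Somites the lowest gastruloid was at 90%, and in Primitive Streak the highest was at 31.5%. The share is of UMIs, and the 2 genes can differ in capture.

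The partner chains varied differently. Lamb1 (chr12:31265234-31329644, plus strand) was highest in Early Posterior PSM at 87.1 ± 13.6 CPM (SD, n = 30), followed by Notochord at 67.5 CPM, and lowest in Late Spinal Cord at 9.50 ± 4.67 CPM (SD, n = 18). Lamc1 (chr1:153218922-153332786, minus strand), the gamma chain that nearly all embryonic laminins share, had the narrowest span of the 4 chains, from 11.9 CPM in Early Nascent Mesoderm to 37.3 ± 6.65 CPM in Mature Endoderm (SD, n = 25). Pearson's r between the cluster means of Lamb1 and Lamc1 was -0.12, between Lama1 and Lamb1 0.36, and between Lama5 and Lamc1 0.43. Lamb3, a chain of the laminin of skin and other stratified epithelia, was highest in Mature Endoderm, at 5.59 CPM, against 0.708 CPM in the next type. Lama2, Lama3 and Lama4 had no cluster mean above 2.06 CPM among these 20 types.

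**Figure D3:**
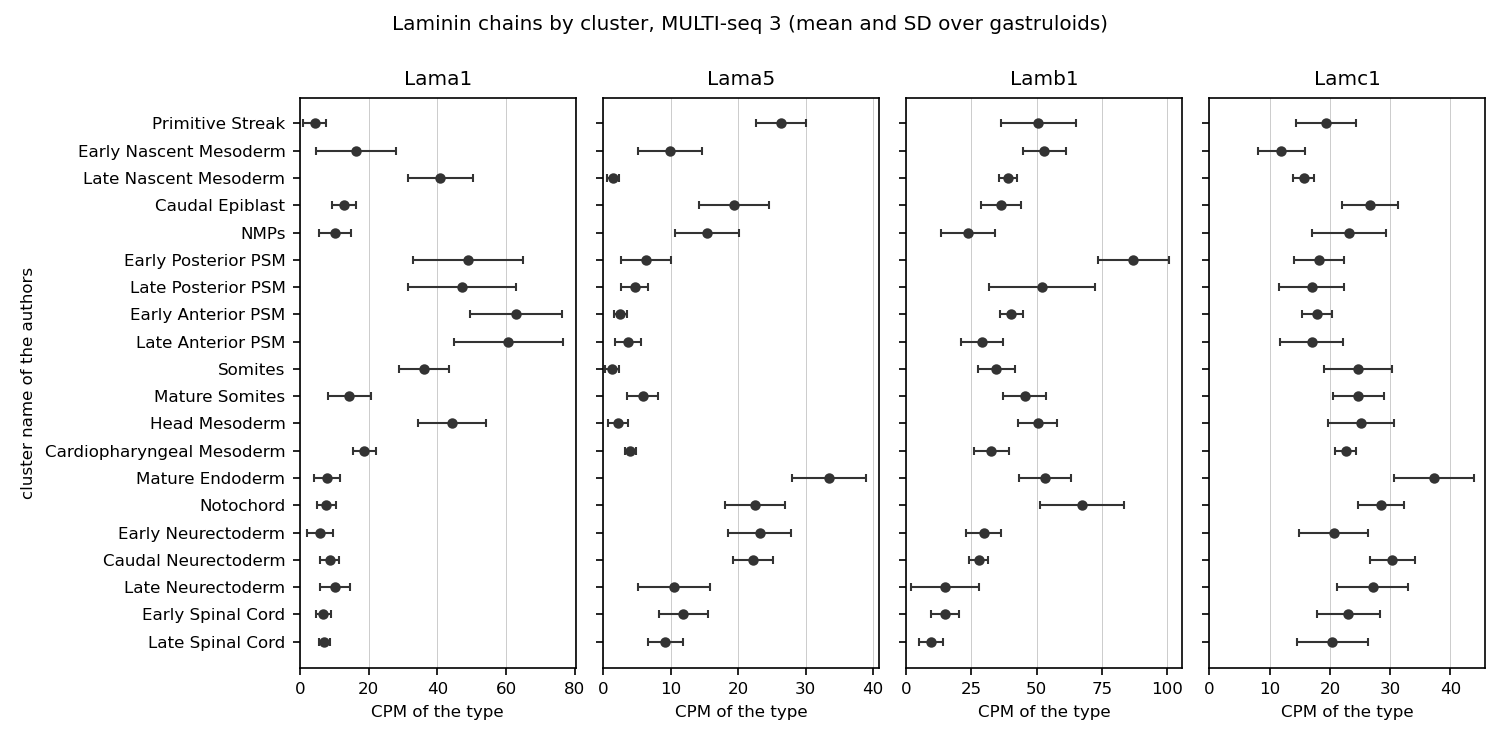
Mean and SD over gastruloids of MULTI-seq 3 of the CPM of Lama1, Lama5, Lamb1 and Lamc1 in each cell type (rows). Lama1 is high in the presomitic and Late Nascent Mesoderm rows where Lama5 is low, Lama5 is highest in Mature Endoderm, and Lamc1 differs least over the rows.

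Of the non-fibrillar collagens named here, Col18a1 was highest in a neural type among the types compared, and Col23a1, Col13a1 and Col26a1 in mesodermal types. Pooled Endothelium, described below and too rare for these means, held more Col18a1 than any of them. Col18a1 (chr10:77052178-77166548, minus strand), whose product is a basement membrane collagen with a C-terminal fragment known as endostatin, was highest in Caudal Neurectoderm at 77.5 ± 11.5 CPM (SD, n = 13), followed by Late Spinal Cord at 68.2 CPM and Mature Endoderm at 68.0 ± 29.1 CPM (SD, n = 25), and lowest in Early Nascent Mesoderm at 3.70 CPM. Col23a1 (chr11:51289920-51583918, plus strand), a transmembrane collagen, was highest in Head Mesoderm at 165.6 ± 21.8 CPM (SD, n = 12) and lowest in Early Spinal Cord at 2.13 ± 1.48 CPM (SD, n = 36). Their ranges did not meet: the lowest Head Mesoderm value was 133.6 CPM and the highest Early Spinal Cord value 6.14. The transmembrane collagen Col13a1 was highest in Head Mesoderm as well, at 53.6 CPM, and lowest in Late Neurectoderm at 0.579 CPM. Col26a1 (chr5:136741759-136883209, minus strand) had 57.7 ± 23.7 CPM in Somites (SD, n = 22) and 56.7 CPM in Mature Somites, which differ by less than their spread, against 0.410 CPM in Late Spinal Cord.

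Of the 7 fibrillar chains that reached 5 CPM, 4 were highest in Somites or Mature Somites among the types compared (Col1a1, Col1a2, Col3a1 and Col5a1). Col2a1, Col11a1 and Col27a1 had other types on top. Pooled Endothelium, described below, held more Col3a1 than the mean of any of these types. Col2a1 (chr15:97975602-98004695, minus strand), the main collagen of cartilage and of the notochord sheath, was highest in Notochord at 67.2 ± 36.8 CPM (SD, n = 9), from 30.9 to 137.5, followed by Head Mesoderm at 44.8 ± 34.5 CPM (SD, n = 12), so that these neighbours did not differ beyond their spread. Col5a1 (chr2:27886425-28039514, plus strand), a chain of the collagen V that starts fibrils, had 36.7 ± 22.4 CPM in Somites (SD, n = 22). Col1a1 and Col1a2, the chains of collagen I, were highest in Mature Somites at 6.18 and 13.5 CPM. Col11a1, a chain of the collagen XI that joins collagen II, was highest in Mature Endoderm at 11.4 ± 11.7 CPM (SD, n = 25), with Late Neurectoderm at 10.3. Col3a1 (chr1:45311538-45349706, plus strand), the chain of collagen III in soft tissues and vessel walls, had 8.66 ± 14.5 CPM in Mature Somites (SD, n = 33) and 7.43 ± 23.9 in Head Mesoderm (SD, n = 12). The Head Mesoderm value rested on 1 gastruloid of day 5 at 83.1 CPM: without it the mean of the other 11 was 0.544 CPM. With at least 40 cells of a type required, Head Mesoderm was on top for Col3a1. Of the lysyl oxidases, Loxl2 (chr14:69609068-69695834, plus strand), an enzyme that acts on collagen IV, was highest in Head Mesoderm at 29.95 ± 20.6 CPM (SD, n = 12) and Mature Somites at 29.6 ± 15.6 CPM (SD, n = 33), means over days that differed: 16.4 CPM at day 4 and 48.97 at day 5 in Head Mesoderm, and 12.5, 17.8 and 44.5 CPM at days 4, 4.5 and 5 in Mature Somites. Loxl1 was highest in Cardiopharyngeal Mesoderm at 6.66 CPM (n = 7), a mean raised by 1 gastruloid at 12.4 CPM against 7.22 for the next.

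The contrast between neural and somitic cells was also described within single gastruloids. Those of MULTI-seq 3 entered the cluster means above, so their counts restate these means by gastruloid and are no separate support. Among the 15 day 5 gastruloids of MULTI-seq 3 with at least 20 cells of both Early Spinal Cord and Mature Somites, Col4a1 was higher in the spinal cord cells in 0 (means of 26.8 and 120.9 CPM), as were Lamb1, Loxl2, Col23a1 and Col26a1. Col18a1 was higher in the spinal cord cells in 12 of 15 (means of 56.3 and 39.5 CPM) and Lama5 in 13 of 15 (9.74 and 7.10 CPM). In MULTI-seq 1, Col4a1 was higher in the spinal cord cells in 0 of 19 such gastruloids, and Col18a1 and Lama5 in 18 of 19 each. Early Spinal Cord cells had 0.80 CPM of Col26a1 in MULTI-seq 3, where Mature Somites cells of the same gastruloids had 55.8.

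The next question was how the members change with age, asked between days barcoded in the same pool. Day 4 was compared with day 3.5 in MULTI-seq 3 (16 gastruloids each) by edgeR's quasi-likelihood test with Benjamini-Hochberg adjustment over all genes tested. Collagen transcripts of several classes were higher at day 4, and Lama5 was lower. Of the 28 members with enough counts to be tested, 18 passed an adjusted p of 0.05 (60.4% of the 13262 genes tested did), 16 of them higher (31.1% of all genes) and 2 lower (29.2% of all genes). The 2 lower members were Lama5 and Col27a1, and 32 members were too low to test. The median log2 fold change was 0.62 over the 28 and 0.0088 over all genes. By class, 4 of 6 tested fibrillar chains, 2 of 4 collagen IV chains, 2 of 3 transmembrane chains and 3 of 5 fibril-associated chains were higher, and of the laminin chains Lama1 was higher and Lama5 lower. In whole gastruloids, fewer cells of a type and less RNA per cell cannot be told apart. Cells with neural cluster names made up 37.3% ± 28.3 of a day 3.5 gastruloid and 10.2% ± 24.0 of a day 4 gastruloid (SD, n = 16 each). With that share as covariate 14 of the 18 calls remained. In all 19 of 28 members then passed, 16 higher and 3 lower (50.7% of all genes passed, in place of 60.4%). The calls lost were those of Lama1, Col13a1 and Col1a2, whose values follow, and Col6a1 (0.42, adjusted p = 0.138 against 0.60 and 0.0134 without the covariate).

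Lama5 ranged from 9.19 to 25.9 CPM at day 3.5 (median 19.9) and from 5.48 to 16.7 at day 4 (median 8.35). Its mean fell from 18.8 ± 5.37 to 9.78 ± 3.51 CPM (SD, n = 16 each), a log2 fold change of -0.96 (SE 0.157, edgeR adjusted p = 4.55e-06), and each of the 16 day 4 gastruloids lay below the day 3.5 median. Lama1 went the other way, from 22.0 ± 13.97 CPM (8.76 to 48.8, median 15.3) to 34.6 ± 10.0 CPM (13.5 to 49.1, median 37.3), a log2 fold change of 0.60 (SE 0.243, edgeR adjusted p = 0.0342). The Lama1 ranges overlapped over most of their length, and its call was lost with at least 100 cells per gastruloid (0.53, adjusted p = 0.0700) and with the neural share as covariate (0.04, adjusted p = 0.781), the latter being the highest over 10 alternatives, whose lowest was 0.0207. Lamb1 and Lamc1 had log2 fold changes of -0.14 (adjusted p = 0.388) and -0.04 (adjusted p = 0.642). With the neural share as covariate Lamb1 was lower at day 4 by that model, at -0.50 (adjusted p = 9.39e-08, the lowest over its 10 alternatives, whose highest was 0.544).

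Col4a1 ranged from 38.6 to 93.4 CPM at day 3.5 (median 46.6) and from 37.7 to 154 at day 4 (median 113.7). The mean rose from 53.8 ± 17.2 to 106.7 ± 31.5 CPM (SD, n = 16 each), a log2 fold change of 0.95 (SE 0.163, edgeR adjusted p = 1.04e-05), with 14 of 16 day 4 gastruloids above the day 3.5 median. Col4a2 rose as well, from 17.6 ± 4.45 to 34.9 ± 10.0 CPM, a log2 fold change of 0.95 (SE 0.140, edgeR adjusted p = 1.09e-06). Col4a5 and Col4a6 did not pass the test (0.23 with adjusted p = 0.172, and 0.27 with adjusted p = 0.185). With the neural share as covariate the Col4a1 fold change was 0.49, and Col4a1 and Col4a2 kept their calls. Summed markers of extraembryonic endoderm (Ttr, Afp, Apoa1, Thbd and Plat) had a median of 1.37 CPM at day 3.5 and 7.46 CPM at day 4. Of these, Plat alone exceeded 2.94 CPM in any cluster, with 35.7 CPM in Mature Endoderm, so the sum does not single out extraembryonic endoderm. Mature Endoderm had at least 20 cells in 1 gastruloid of day 3.5 and 13 of day 4. Gastruloids had a median of 288 cells at day 3.5 and 854 at day 4. A fixed minimum of 20 cells is thus met more readily at day 4, and these numbers do not compare shares of endoderm. The part of any of these in the collagen IV values was not tested.

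Col2a1 rose from 5.44 ± 1.77 CPM (2.22 to 8.77, median 5.19) to 14.01 ± 7.57 CPM (7.77 to 36.2, median 12.01), a log2 fold change of 1.31 (SE 0.195, edgeR adjusted p = 1.17e-06). Each of the 16 day 4 gastruloids lay above the day 3.5 median. Col5a1 rose from 6.32 to 15.4 CPM (log2 fold change 1.26, edgeR adjusted p = 3.89e-08). The mesodermal transmembrane chain Col23a1 had one of the largest changes, from 9.24 ± 4.98 to 47.8 ± 24.4 CPM (SD, n = 16 each; log2 fold change 2.32, SE 0.294, edgeR adjusted p = 9.07e-08). Col26a1 rose from 1.20 ± 0.982 to 13.1 ± 7.71 CPM (3.30, SE 0.404, edgeR adjusted p = 4.78e-08). It was low at day 3.5, and whether it had enough counts to be tested only by its day 4 values was not examined. With the neural share as covariate these fold changes were smaller and kept their calls, at 1.66 for Col23a1 (adjusted p = 2.05e-05) and 2.29 for Col26a1 (adjusted p = 7.22e-07), the highest adjusted p over 10 alternatives each. Day 4 gastruloids spread widely in both genes, from 6.48 to 87.6 CPM for Col23a1 and from 0.410 to 25.0 CPM for Col26a1. Loxl2 rose from 4.03 ± 0.853 to 9.77 ± 4.62 CPM, a log2 fold change of 1.24 (SE 0.175, edgeR adjusted p = 4.92e-07), with all 16 gastruloids above the day 3.5 median. Col13a1 (0.73, adjusted p = 0.0117) and Col1a2 (1.05, adjusted p = 0.0167) rose as well, but with the neural share as covariate their adjusted p values were 0.400 and 0.690, the highest over 10 alternatives each (lowest 0.00621 and 0.00698). Col18a1 had a log2 fold change of -0.27 (adjusted p = 0.334) and, with that covariate, 0.46 (adjusted p = 0.0169), so its direction turned with that covariate.

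**Figure D4:**
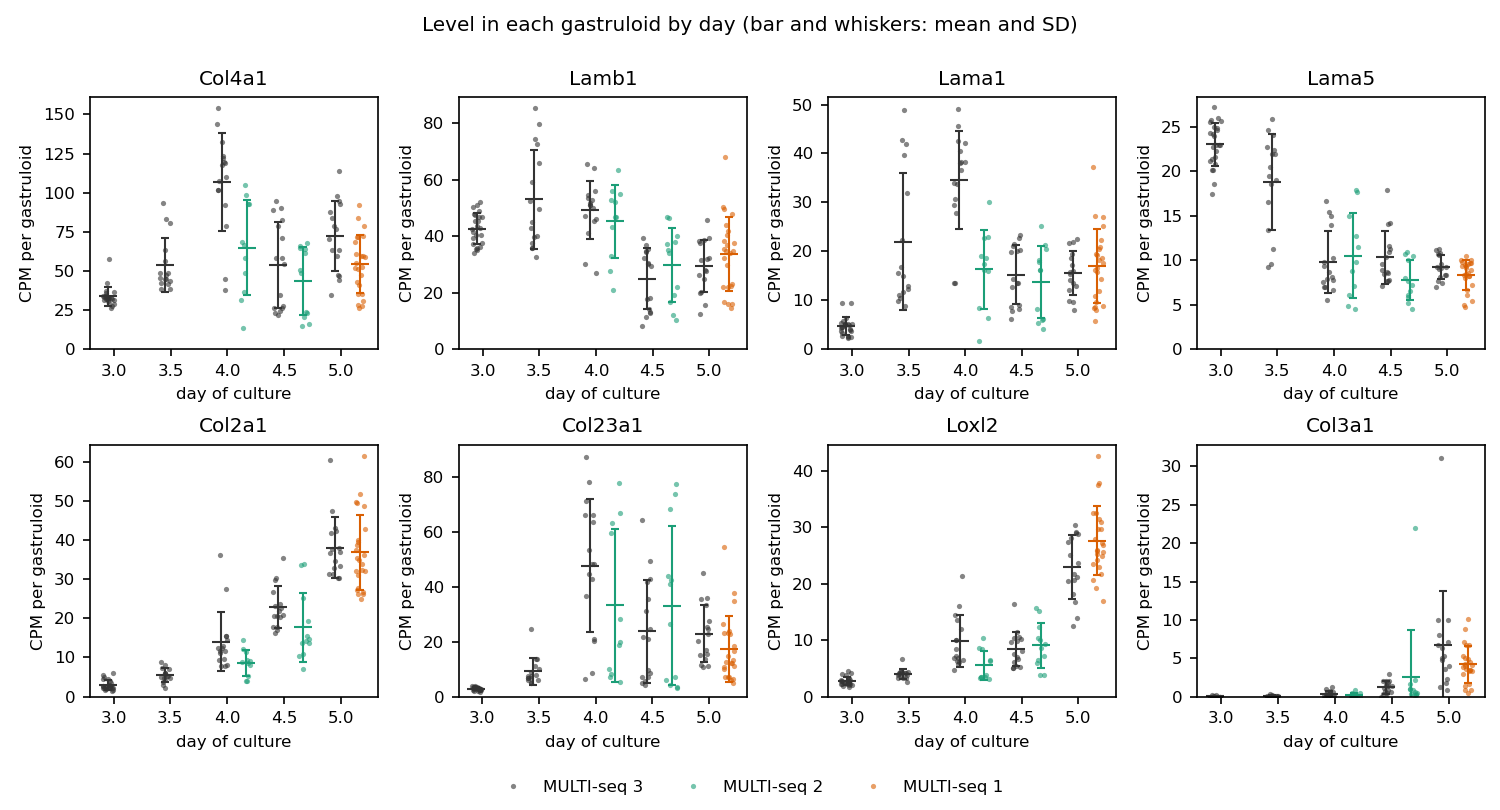
CPM per gastruloid by day of culture for 8 members, each point 1 gastruloid, with the mean and SD as bar and whiskers and colours for the 3 MULTI-seq experiments. Lama5 falls between day 3.5 and day 4 while Col4a1, Col2a1, Col23a1 and Loxl2 rise, and Loxl2 and Col3a1 rise again between day 4.5 and day 5.

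The same days were then compared within single cell types, as the authors named them. In Early Posterior PSM, Lamb1 and Lama5 were lower at day 4 while collagens of several classes were higher. This type and Caudal Epiblast were chosen as those with the most gastruloids of at least 20 cells on both days. Of the 19 members tested in Early Posterior PSM (10 gastruloids of day 3.5, 15 of day 4), 12 passed (36.9% of all genes did), 9 higher (18.3% of all genes) and 3 lower (18.6% of all genes). The 3 lower were Lamb1, Lama5 and Col27a1, the last of which lost its call without lane B (-0.44, adjusted p = 0.142, the highest over 9 alternatives, whose lowest was 0.00206). Lamb1 ranged from 94.2 to 110.8 CPM at day 3.5 (median 99.2) and from 54.2 to 97.7 at day 4 (median 78.8). It fell from 99.8 ± 4.60 to 79.5 ± 9.76 CPM, a log2 fold change of -0.41 (SE 0.0503, edgeR adjusted p = 1.22e-07), and each of the 15 day 4 gastruloids lay below the day 3.5 median. Lama5 fell from 7.60 ± 3.86 to 4.17 ± 1.499 CPM (-0.86, SE 0.212, edgeR adjusted p = 0.00158), 13 of 15 lying below the earlier median. Lama1, at 55.8 and 54.0 CPM, did not pass (-0.18, adjusted p = 0.110), nor did Col4a1, at 66.8 and 77.9 CPM (0.13, adjusted p = 0.219). The whole-gastruloid change of Col4a1, 0.95 on the log2 scale, had no counterpart past the threshold in this type. The difference between these fold changes was not tested, and the gastruloids are shared.

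Col23a1 rose within Early Posterior PSM from 9.37 ± 5.90 CPM (2.68 to 22.5) to 26.2 ± 7.62 CPM (11.97 to 43.3), a log2 fold change of 1.19 (SE 0.197, edgeR adjusted p = 1.24e-05), all 15 lying above the earlier median. Collagens of other classes rose too. Col2a1 went from 1.43 to 6.30 CPM (1.88, adjusted p = 9.83e-07), Col26a1 from 2.39 to 7.77 CPM (1.41, adjusted p = 8.90e-05), and Col14a1, a fibril-associated collagen, from 0.261 to 4.97 CPM (3.52, adjusted p = 7.48e-08). At day 3.5 Col14a1 lay near the floor, and it passed the filter on low counts by its day 4 values. Its change is therefore given as a description, though it is counted among the higher members. Col2a1 and Col26a1 were also low at day 3.5, at 1.43 and 2.39 CPM. Whether they passed that filter only by their day 4 values was not examined, so their p-values carry the same limit. Smaller rises were those of Col9a1 (1.11), Col4a5 (0.88), Loxl2 (0.79), Col18a1 (0.72) and Col5a1 (0.58), with adjusted p values from 2.58e-05 to 0.00277. In Caudal Epiblast (13 gastruloids on each day) 2 of 10 tested members passed (18.8% of all genes did, 9.58% higher and 9.19% lower): Col2a1 was higher, 7.35 and 12.1 CPM (0.65, adjusted p = 0.00731), and Lamc1 lower, 29.7 and 23.6 CPM (-0.29, adjusted p = 0.00816). Both calls were lost with at least 40 cells of the type (adjusted p = 0.129 and 0.0998), and that of Lamc1 also without lane A (0.0758) or lane B (0.126). Over their 9 alternatives the adjusted p ran from 0.00349 to 0.129 for Col2a1 and from 0.00662 to 0.126 for Lamc1.

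Between day 4.5 and day 5 the members that passed by edgeR were fibrillar collagens and Loxl2. Of 28 members tested in whole gastruloids (16 of each day), 5 passed (13.5% of all genes did), all 5 higher (6.35% of all genes were higher and 7.11% lower). They were Loxl2, Col3a1, Col2a1, Col1a2 and Col11a1. With the neural share as covariate 11 of 28 passed by edgeR (24.2% of all genes), 10 higher and 1 lower. The lower member was Col5a1 (-0.31, adjusted p = 0.0107), and Col1a1 was among the higher (0.79, adjusted p = 0.0232). The median log2 fold change was 0.19 over the 28 members and -0.00070 over all genes. Loxl2 ranged from 5.03 to 16.3 CPM at day 4.5 (median 7.80) and from 12.6 to 30.3 at day 5 (median 22.7). Its mean rose from 8.399 ± 3.05 to 22.9 ± 5.66 CPM (SD, n = 16 each), a log2 fold change of 1.43 (SE 0.146, edgeR adjusted p = 9.24e-08), each of the 16 lying above the earlier median. Col2a1 rose from 22.8 ± 5.35 CPM (16.3 to 35.5) to 38.1 ± 7.84 CPM (30.4 to 60.5), a log2 fold change of 0.72 (SE 0.0962, edgeR adjusted p = 7.96e-06), again in 16 of 16. Col3a1 was at 0 to 2.97 CPM at day 4.5 (median 1.29) and 0.917 to 31.1 at day 5 (median 5.13), a log2 fold change of 2.45 (SE 0.422, edgeR adjusted p = 0.000203), with 15 of 16 above the earlier median. The gastruloid at 31.1 CPM is the one that set the Head Mesoderm mean, and the mean over the other 15 was 5.12 ± 2.91 CPM. Col3a1 was low at day 4.5, and whether it passed the filter on low counts only by its day 5 values was not examined. The calls of Col1a2 (0.93, adjusted p = 0.0338) and Col11a1 (0.35, adjusted p = 0.0370) were lost without single lanes: Col1a2 without lane A (0.0555) or B (0.0686), and Col11a1 without lane B (0.0827) or C (0.0988). Over 9 alternatives the adjusted p ran from 0.000179 to 0.0686 for Col1a2 and from 0.0298 to 0.0988 for Col11a1.

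By edgeR no laminin or collagen IV chain passed in whole gastruloids between these days. Col4a1 was at 53.8 ± 27.6 and 72.2 ± 22.4 CPM (0.40, adjusted p = 0.213) and Col4a2 at 22.2 ± 10.2 and 31.9 ± 8.87 CPM (0.49, adjusted p = 0.0715). DESeq2 called Col4a2 (0.50, adjusted p = 0.0490) and not Col4a1. With the neural share of cells as covariate both passed, at 0.36 (adjusted p = 0.000427) and 0.44 (adjusted p = 3.15e-05), each the lowest over 9 alternatives (highest 0.275 and 0.0926). The neural share was 41.6% ± 34.7 on the earlier day and 33.9% ± 26.0 on the later (SD, n = 16 each). Lamb1 (0.21, adjusted p = 0.535), Lamc1 (0.02, adjusted p = 0.901), Lama5 (-0.18, adjusted p = 0.265) and Col18a1 (-0.04, adjusted p = 0.887) did not pass either, and the Lama1 means were 15.2 and 15.5 CPM.

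In Mature Somites, Loxl2, Col3a1, Col2a1, Col4a1, Col4a2 and Lamb1 were higher at day 5, and Col23a1, Col5a1 and Col13a1 were lower. Of 22 members tested there (10 gastruloids of day 4.5, 16 of day 5), 9 passed (14.6% of all genes did), 6 higher (6.94% of all genes) and 3 lower (7.66% of all genes). Loxl2 separated the days: it ranged from 12.9 to 26.8 CPM at day 4.5 (median 16.9) and from 35.6 to 52.2 at day 5 (median 44.3), with no overlap. The means were 17.8 ± 4.70 and 44.5 ± 4.90 CPM, a log2 fold change of 1.36 (SE 0.0930, edgeR adjusted p = 1.02e-12). Col3a1 ranged from 0 to 6.68 CPM (median 0.980) and from 1.25 to 79.1 CPM (median 11.2), a log2 fold change of 2.93 (SE 0.658, edgeR adjusted p = 0.00160), with 16 of 16 above the earlier median. The day 5 mean was 16.0 ± 18.2 CPM, and 11.8 ± 7.05 without the highest gastruloid. Here too the day 4.5 values of Col3a1 were low, and whether it passed the filter only by day 5 was not examined. Late Spinal Cord cells of day 5 had 0.362 CPM of Col3a1.

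Of the collagen IV and laminin chains tested in Mature Somites, Col4a1, Col4a2 and Lamb1 rose. Col4a1 went from 83.8 ± 11.7 to 119.4 ± 31.7 CPM (log2 fold change 0.51, SE 0.122, edgeR adjusted p = 0.00306) and Col4a2 from 36.0 ± 5.46 to 52.3 ± 14.2 CPM (0.55, SE 0.134, edgeR adjusted p = 0.00391). Lamb1 ranged from 31.8 to 46.7 CPM (median 36.2) and from 38.4 to 60.2 CPM (median 47.9), a log2 fold change of 0.36 (SE 0.0735, edgeR adjusted p = 0.000546). For Lamb1 and Col4a2, 16 of 16 gastruloids of day 5 lay above the earlier median, and for Col4a1 15 of 16. Lamc1 (0.01, adjusted p = 0.982), Lama1 (0.12, adjusted p = 0.635) and Lama5 (0.38, adjusted p = 0.115) did not pass. Col2a1 rose from 29.3 to 41.0 CPM (0.45, adjusted p = 0.00208), a call that was lost without lane B (0.29, adjusted p = 0.0576, the highest over 8 alternatives, whose lowest was 9.53e-05).

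Col23a1, Col5a1 and Col13a1 fell in Mature Somites between the same days. Col23a1 went from 81.3 ± 9.44 CPM (64.9 to 93.1) to 50.5 ± 12.4 CPM (37.6 to 79.9), a log2 fold change of -0.71 (SE 0.0979, edgeR adjusted p = 2.34e-06), and 16 of 16 lay below the earlier median. Col5a1 went from 27.7 ± 5.48 to 16.7 ± 5.16 CPM (-0.78, SE 0.137, edgeR adjusted p = 9.03e-05), with 15 of 16 below it. Col13a1 was at 14.01 and 11.7 CPM (-0.32, adjusted p = 0.0385), and its call was lost without the filter on low counts (0.0762) and without lane A (0.0740), over a range from 0.00994 to 0.0762. The fibrillar collagens of Mature Somites moved in both directions: Col3a1 and Col2a1 up, Col5a1 down, and Col1a2, at 10.96 and 15.7 CPM, with no call (0.45, adjusted p = 0.106). In the day 4 gastruloids with enough Mature Somites cells (n = 7), which belong to another pool, Col5a1 was at 56.7 ± 11.3 CPM and Loxl2 at 12.5 ± 5.31 CPM.

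**Figure D5:**
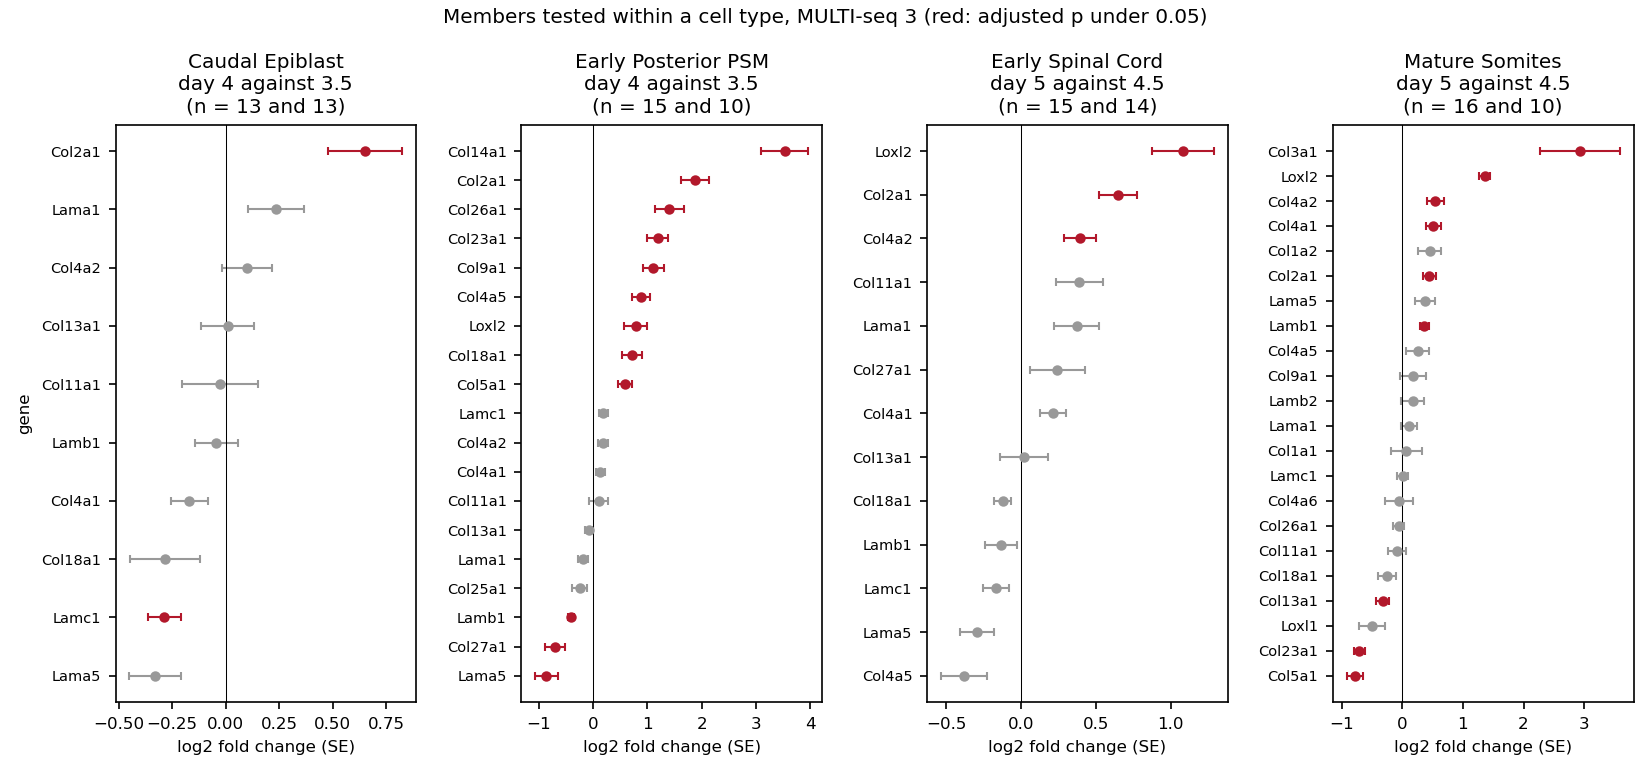
Log2 fold change and SE of each tested member within 4 cell types of MULTI-seq 3, day 4 against day 3.5 for Caudal Epiblast and Early Posterior PSM and day 5 against day 4.5 for Early Spinal Cord and Mature Somites, in red where the adjusted p was under 0.05. Loxl2 is right of 0 in red in 3 of the panels, and Lamb1 is left of 0 in Early Posterior PSM and right of 0 in Mature Somites.

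In Early Spinal Cord (14 gastruloids of day 4.5 and 15 of day 5) 3 of 13 tested members passed (12.3% of all genes did), all 3 higher (6.33% of all genes were higher and 5.99% lower). Loxl2 ranged from 0.868 to 10.8 CPM (median 4.56) and from 5.13 to 15.6 CPM (median 8.45), a log2 fold change of 1.08 (SE 0.207, edgeR adjusted p = 0.000262), and each of the 15 later gastruloids lay above the earlier median. Col2a1 went from 18.0 ± 4.73 to 27.1 ± 7.36 CPM (0.65, SE 0.124, edgeR adjusted p = 0.000295). Col4a2 went from 9.77 to 12.8 CPM (0.39, adjusted p = 0.00980), but not without lane A (0.124) or lane C (0.0612), over a range from 0.00444 to 0.124. Col18a1, at 59.6 and 56.3 CPM, had a log2 fold change of -0.12 (adjusted p = 0.149). Loxl2 and Col2a1 passed in whole gastruloids, in Mature Somites and in Early Spinal Cord. These results share gastruloids and lanes.

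MULTI-seq 2 compared day 4.5 with day 4 (12 and 11 gastruloids), and 1 of 22 tested members passed (7.36% of all genes did, 3.03% higher and 4.33% lower). Col2a1 ranged from 3.96 to 14.4 CPM at day 4 (median 8.75) and from 7.13 to 34.0 at day 4.5 (median 14.4), a log2 fold change of 0.95 (SE 0.236, edgeR adjusted p = 0.0137), with 11 of 12 above the earlier median. This call was lost with at least 100 cells (0.83, adjusted p = 0.0581) and without lane 3 (0.66, adjusted p = 0.177), over a range from 0.000113 to 0.177. Lamb1, at 45.3 and 29.8 CPM (-0.61, adjusted p = 0.0847), Col4a1, at 64.7 and 43.5 CPM (-0.61, adjusted p = 0.210), and Loxl2, at 5.52 and 9.07 CPM (0.64, adjusted p = 0.115), did not pass by edgeR. With the neural share as covariate Lamb1 (-0.32, adjusted p = 0.0153) and Loxl2 (0.86, adjusted p = 0.00473) did, as did Lama5 (-0.62, adjusted p = 0.0131) and Loxl1 (1.24, adjusted p = 0.0116), and 6 of 22 members then passed (27.3%, against 14.4% of all genes). Lamb1 also passed without lane 2 (-0.65, adjusted p = 0.0478). Over 8 alternatives the adjusted p ran from 0.0153 to 0.136 for Lamb1 and from 0.00473 to 0.311 for Loxl2. With at least 100 cells Col11a1 was the only member called (0.59, adjusted p = 0.0434). No type had 5 gastruloids of at least 20 cells on both days, the minimum set for tests within a type, so none was run there.

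Over all days of MULTI-seq 3, which fall into 3 pools and are set side by side without a test, the mean of Lama5 was 23.0, 18.8, 9.78, 10.3 and 9.21 CPM at days 3, 3.5, 4, 4.5 and 5. Lama1 was at 4.62, 22.0, 34.6, 15.2 and 15.5 CPM, and the Lama1 share of both chains was 16.7% ± 6.76, 49.8% ± 20.4, 76.4% ± 13.1, 57.6% ± 14.4 and 61.7% ± 7.63. In each of the 24 day 3 gastruloids the Lama1 share of UMIs was at most 34.8%, and the mean share was highest at day 4. Loxl2 was at 2.73, 4.03, 9.77, 8.399 and 22.9 CPM. Col2a1 had higher means at each later day, from 3.02 CPM at day 3 to 38.1 CPM at day 5, and so did Col3a1, from 0.018 to 6.75 CPM. Col4a1 had its highest mean at day 4, 106.7 CPM, against 33.7 CPM at day 3 and 72.2 CPM at day 5.

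Gastruloids of the same day were next compared between experiments, which differ in culture, library and lanes at once and cannot be told apart in these respects. At day 4, 3 of 36 tested members differed between MULTI-seq 3 (n = 16) and MULTI-seq 2 (n = 11), where 46.1% of all genes did. Lama1 was at 34.6 ± 10.0 CPM in MULTI-seq 3 against 16.3 ± 8.13 (0.88, SE 0.230, edgeR adjusted p = 0.00219), Col13a1 at 27.9 against 16.1 CPM (0.58, adjusted p = 0.0392) and Col27a1 at 3.05 against 5.62 CPM (-1.01, adjusted p = 5.49e-05). The Col13a1 call was lost with at least 100 cells (0.198) and without lane 2 (0.194) or lane 3 (0.0599) of MULTI-seq 2. At day 4.5, 4 of 24 differed (42.5% of all genes did): Lama5 (0.48, adjusted p = 0.0130) and Lamc1 (0.22, adjusted p = 0.0180) were higher in MULTI-seq 3, and Col4a5 (-0.41, adjusted p = 0.0252) and Col4a6 (-0.43, adjusted p = 0.0374) were lower. Of these, Lamc1 lost its call without lane 3 of MULTI-seq 2 (0.0601) or lane C of MULTI-seq 3 (0.135), and Col4a5 without lane 2 of MULTI-seq 2 (0.0645) or lane B of MULTI-seq 3 (0.0708). Lamc1 also lost it by library size only (0.0796). Col4a6 lost its call without the filter on low counts (0.0721), without lane 3 of MULTI-seq 2 (0.0843) and without lane A of MULTI-seq 3 (0.0502), so that Lama5 alone kept its call under each of the 11 alternatives. At day 5, 7 of 24 members differed from MULTI-seq 1 (n = 24), where 63.7% of all genes did. Col4a1 was at 72.2 ± 22.4 against 54.2 ± 18.6 CPM (0.64, SE 0.141, edgeR adjusted p = 0.000143), and Col4a2, Lama5, Col3a1, Col2a1 and Col23a1 were higher as well, whereas Col11a1, at 7.70 against 11 CPM, was lower (-0.27, adjusted p = 0.0107). Scaling by library size alone moved the median log2 fold change of all genes from -0.02 to -0.25 in this comparison, and under it Col4a2, Lama5, Col2a1 and Col23a1 lost their calls. With that scaling 9 of 24 members passed, where 74.7% of all genes did. The split of members called was then 2 higher and 7 lower, in place of 6 higher and 1 lower, and 3 calls were shared. In each of the 3 comparisons the share of members called was below that of all genes, but at day 4.5 it was above with the neural share as covariate, where 14 of 24 members (58.3%) and 52.2% of all genes passed. Members also varied more among gastruloids. The median coefficient of biological variation by edgeR was 0.40 for members and 0.12 for all genes at day 4. It was 0.42 and 0.11 at day 4.5, and 0.24 and 0.085 at day 5. At a wider spread fewer changes of a given size pass, so these shares do not compare sizes of change. The gastruloids of MULTI-seq 3 are those of the comparisons of days.

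Genes that act on or with the members were counted from lists of their own. The alternatives to the main settings, among them the neural share as covariate and lanes left out, were not examined for these genes. Of the 18 collagen-modifying enzymes and chaperones, 16 were tested between day 3.5 and day 4, and 9 were higher and 0 lower. Over all genes 31.1% were higher and 29.2% lower, shares against which each count for whole gastruloids of these days is to be read. Within cell types the list was divided: in Early Posterior PSM 4 of 15 were higher and 2 lower, with a median log2 fold change of 0.0069 (18.3% and 18.6% of all genes), and in Caudal Epiblast 1 of 10 was higher and 1 lower, with a median of -0.035 (9.58% and 9.19% of all genes). P4ha1 was higher and P4hb lower in both types. In whole gastruloids P4ha1, a subunit of the prolyl hydroxylase that stabilises the collagen helix, rose from 18.3 ± 3.04 to 41.2 ± 9.96 CPM (SD, n = 16 each; log2 fold change 1.13, edgeR adjusted p = 1.42e-09), and the collagen chaperone Serpinh1 from 89.3 to 129 CPM (0.50, adjusted p = 2.00e-07). Of 12 basement membrane partners 9 were higher, among them Smoc1 (2.03), Sparc (1.35) and Nid1 (1.30), and 3 were lower, namely Frem2 (-1.06), Npnt (-0.84) and Fras1 (-0.64), the extracellular proteins of epithelial basement membranes. Of 8 interstitial matrix genes tested (16 listed), 6 were higher and 0 lower, with Fbn2, which encodes a fibrillin, at 8.14 and 54.2 CPM (2.61). Propeptide processing genes were higher in 2 of 5 tested, proteases and their inhibitors in 4 of 7, and receptors in 1 of 6, with Itgb1 higher (0.25) and Itga6, the alpha subunit of a laminin receptor, lower (-0.73, adjusted p = 0.00984). Between day 4.5 and day 5, 6 of 16 enzymes and chaperones were higher and 0 lower (6.35% and 7.11% of all genes), again with P4ha1 (0.60) and Serpinh1 (0.34), together with Plod1 (0.71) and Plod2 (0.49), lysyl hydroxylases whose products are crosslinked after lysyl oxidase acts. In Mature Somites at these days P4ha1, Plod1 and Plod2 were higher (3 of 16, against 6.94% of all genes), with a median log2 fold change of 0.042 over the 16, and Itga6 rose from 15.0 to 25.9 CPM (0.84, adjusted p = 0.00791). In Early Spinal Cord 3 of 13 enzymes and chaperones were higher (6.33% of all genes). In MULTI-seq 2 edgeR called 0 of 16 between day 4 and day 4.5, where 5 had an unadjusted p under 0.05. Of all genes 7.36% were called there, 3.03% higher and 4.33% lower.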

How the data were processed

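Single-cell 3' RNA-seq of gastruloids was taken from the matrices the authors deposited, which hold UMI counts per gene and cell barcode. Cell Ranger 6.0.0, Seurat and mm10 are named in the submitters' processing notes, with no role given. The authors' deposited cell table gave the final cells, the cluster name, the gastruloid barcode and the day. Only cells with 1 gastruloid barcode entered sums, which leaves out MULTI-seq doublets. The authors' own call of hybrid cells was negative for each cell, and no doublet caller was run.

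The members and the gene lists were chosen with earlier results of these data known. Counts were summed per gastruloid over lanes (at least 30 cells) or per gastruloid and cluster name (at least 20 cells). Tests used edgeR 4.0.16 in R 4.3.3 (TMM, filterByExpr, quasi-likelihood, Benjamini-Hochberg over all genes tested), checked on simulated data, at an adjusted p of 0.05. CPM are on the plain library size, and log2 fold changes use TMM. Members named in full are those called with the largest fold change (up to 8 per direction, at least 5 CPM in a group) and a fixed set of common chains. Others are counted, or were named after their values were seen. Alternatives were DESeq2 1.42.0, RLE scaling, no filter on low counts, higher minimum numbers of cells, the neural share as covariate, each lane left out and, added after the data were seen, library sizes only. The pool C lanes of MULTI-seq 2 with days 4 and 4.5 and the 10X lanes have no gastruloid assigned in the cell table and entered no test, and the 4 lanes of MULTI-seq 2 with days 3 and 3.5 were not analysed here. Promoters were read from RefSeq. The values of 1 member are not reported here.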

Additional observations from a re-analysis of the deposited data

Results flagged for a closer look

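For 6 of 42 pairs of a gene and a group of 4 to 10 gastruloids, 1 gastruloid stood apart from the rest by Dixon's criterion, which chance alone meets in about 1 in 20. The 6 fall in 3 groups, whose genes share gastruloids. All 6 are CPM of a cell type in single gastruloids of MULTI-seq 3. In Early Posterior PSM at day 3.5 the highest gastruloid had 110.8 CPM of Lamb1 against 101.5 for the next. In the same group Col5a2 and Lox each had 0.102 CPM in 1 gastruloid and 0 in the other 9, which is a matter of single UMIs. In Mature Somites at day 4.5 the highest gastruloid had 34.2 CPM of Lamc1, the next 26.9. In Cardiopharyngeal Mesoderm (7 gastruloids over all days) the lowest gastruloid had 1.55 CPM of Col4a6 against 4.99 for the next, and the highest had 12.4 CPM of Loxl1 against 7.22. No cause of these values was tested.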

How the results depend on the processing

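Over the alternatives 1219 named fold changes kept their direction and side of the threshold, called or not, so this is no count of calls kept. A further 40 that passed under neither setting changed sign, 44 newly passed the threshold, 31 no longer did and 2 reversed. The reversed ones were Col18a1 between day 3.5 and day 4 with the neural share as covariate (0.46) and Lamc1 at day 5 against MULTI-seq 1 by library size only (-0.17, adjusted p = 0.00274). The number of members called moved as follows; other alternatives stayed within 1.5 times. Without the filter on low counts more members were tested, and it was 28 of 60 (36.7% of all genes) in place of 18 of 28 (day 4 against 3.5, MULTI-seq 3), 8 of 60 (5.73%) in place of 5 of 28 (day 5 against 4.5), 5 of 60 (24.4%) in place of 3 of 36 (experiments at day 4), 13 of 60 (35.6%) in place of 7 of 24 (experiments at day 5) and 5 of 53 (8.14%) in place of 2 of 10 (Caudal Epiblast). With the neural share as covariate, where calls over all genes rose as well, it was 11 in place of 5 (day 5 against 4.5; 24.2% of all genes in place of 13.5%), 6 in place of 1 (MULTI-seq 2; 14.4% in place of 7.36%), 6 in place of 3 (experiments at day 4; 49.8% in place of 46.1%) and 14 in place of 4 (experiments at day 4.5; 52.2% in place of 42.5%). Between experiments at day 4 DESeq2 called 6 (46.7% of all genes) and library size only called 9 (8 higher, 1 lower, in place of 2 and 1; 50.1%). Caudal Epiblast had 0 of 15 by edgeR with at least 40 cells (5.98% of all genes). There 2 members had an unadjusted p under 0.05 (DESeq2 called 2 at the usual minimum). Without single lanes the count for day 5 against 4.5 ran from 3 of 25 (without lane B, 11.1% of all genes) to 4 of 25. The share of all genes at 4 was 11.2% without lane A and 9.8% without lane C. For MULTI-seq 2 it ran from 0 of 19 (edgeR, without lane 3, 3.39% of all genes) to 2 of 17 (without lane 2, 5.47%). Without lane 3, 4 members had an unadjusted p under 0.05, and DESeq2 called 1 with all lanes. For Caudal Epiblast the count was 1 without lane A (13.7% of all genes) or lane B (13.6%), and 2 without lane C or D (11.9%). The cause was not tested in any of these.

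No paired analysis was possible because a gastruloid belongs to 1 day and 1 experiment: the lane numbers that groups share name splits of a pool, not paired gastruloids. The tests planned within cell types of MULTI-seq 2 were not run, since no type met the set minimum of 5 gastruloids on each day. Depth limits the low members: 32 of 60 were not tested between day 3.5 and day 4.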

Other observations

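Endothelium, which lines blood vessels, was too rare for a test (135 cells from 23 gastruloids of MULTI-seq 3, pooled to 5283999 UMIs), but it held members that were low in the types described so far. Lama4, the alpha chain of vascular laminin, was at 36.9 CPM there (exact Poisson 95% interval 31.9 to 42.5, counting error only), while no mean over gastruloids of the 20 types described above exceeded 0.999. Lama3 was at 15.0 CPM (11.8 to 18.6) and Col15a1, a collagen of vessel basement membranes, at 13.4 (10.5 to 16.95). Col18a1 was at 182.6 CPM (171.3 to 194.5) and Col4a1 at 236.2 (223.3 to 249.7), beside 0.757 of Lama5. The 77 cells of MULTI-seq 1 gave 50.4 CPM of Lama4, 23.1 of Lama3 and 16.5 of Col15a1, while the 24 cells of MULTI-seq 2 gave 14.9 of Lama4 and 0 UMIs of Col15a1. Col3a1 differed between the pools of Endothelium, at 52.2 CPM (46.3 to 58.8) in MULTI-seq 3, 24.0 (16.1 to 34.4) in MULTI-seq 1 and 225.2 (189 to 266.4) in MULTI-seq 2. That difference was not tested over gastruloids.

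The ratio of Col4a1 to Col4a2 UMIs, genes that share a promoter region, differed among groups of gastruloids. Day 3 gastruloids of MULTI-seq 3 had a mean ratio of 3.35 ± 0.424 (SD, n = 24). On day 3.5 the mean was 3.04 ± 0.301, on day 4 3.04 ± 0.282, on day 4.5 2.37 ± 0.276 and on day 5 2.25 ± 0.139 (SD, n = 16 in each case). In MULTI-seq 2 it was 2.69 ± 0.579 at day 4 (n = 11) and 2.27 ± 0.296 at day 4.5 (n = 12), and in MULTI-seq 1 it was 1.95 ± 0.345 at day 5 (n = 24). The days of MULTI-seq 3 fall into separate pools, so pool and day cannot be told apart beyond the pairs of days that share one. Within such pairs of MULTI-seq 3 the means lay close (3.04 and 3.04, then 2.37 and 2.25), and the larger steps fell between pools. In MULTI-seq 2 the days that share a pool had 2.69 and 2.27. None of these differences was tested.

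The lanes without gastruloid barcodes gave 45.2 CPM of Col4a1, 11.5 of Lama1 and 24.4 of Lama5 at day 3, and 63.0, 20.7 and 11.6 at day 4 (10X experiment, 1 lane each). The pool C lanes of MULTI-seq 2 that hold days 4 and 4.5 together (n = 2) had 50.0 and 44.9 CPM of Col4a1, 15.7 and 14.4 of Lama1, and 10.5 and 10.6 of Lama5.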
